A study of Mus musculus with 8 samples.

Results

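Histone H3 acetylated at lysine 9 (H3K9ac) was described at 10 genes of the EGF receptor and Hippo pathways in epithelial cells of the mouse ileum. The genes were Egfr, Erbb2, Erbb3, Errfi1, Lrig1, Yap1, Wwtr1, Tead1, Lats2 and Vgll4, and every region of the deposited table that carried one of these names was taken. This gave 14 of 11251 regions, for 9 of the 10 genes. Wild-type C57Bl/6 mice had received butyrate at 150 mM for 7 days (libraries S4, S5 and S6) or vehicle (S1, S2 and S3), after which the epithelium of the terminal ileum was collected. Butyrate is a short-chain fatty acid of gut bacteria that inhibits histone deacetylases. The comparison of both groups asks where acetylation differs with butyrate. Chromatin was precipitated with an antibody to H3K9ac and sequenced, and 2 input libraries were not analysed here. Neither the age of the mice nor the route of butyrate is given in the sources used here. The labels do not tie each library to its own mouse, and p-values then reflect only how these libraries spread, which may be technical.

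Both pathways set how fast the gut epithelium renews itself. EGF-type ligands bind receptors of the ERBB family, which pair up and signal through RAS, MAP kinases and PI3 kinase, and inhibitors such as LRIG1 hold this signal down in crypt stem cells. In the Hippo pathway a kinase cascade ending in LATS1 and LATS2 keeps the coactivators YAP and TAZ out of the nucleus. When the cascade is off, YAP and TAZ bind TEAD proteins on DNA and turn on genes of growth and repair, and YAP activity in regenerating crypts is known to induce EGF-type ligands. H3K9ac marks active promoters and enhancers, so its level at a gene reports on the state of the promoter and not on RNA.

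Values are RPKM as the authors computed them, the reads of a region scaled to its length and to an effective library size. The 6 libraries held 1255251 to 1828591 reads in regions, and the authors' scaling brought their sums close together, so that an acetylation change shared by all regions could not be seen and each difference is relative to the other regions. Markers of epithelium had a region near the TSS for 13 of 13 genes, at 3.07 to 9.59 RPKM. Immune cell markers had one for 1 of 9 genes (Ptprc, 0.893 RPKM), stroma and muscle markers for 1 of 9 (Vim, 1.08 RPKM), and endothelium and nerve markers for none of 5 and none of 5. In bulk chromatin, fewer cells that carry a mark and less of the mark per cell cannot be told apart.

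The 9 genes had very different levels of H3K9ac, and the ERBB receptor genes stood highest. At the region with the most reads of each gene, the mean over all 6 libraries was 6.21 ± 0.59 RPKM at Erbb3, 5.45 ± 0.69 at Egfr and 5.13 ± 0.31 at Erbb2 (SD, n = 6). The Hippo genes followed, with 4.13 ± 0.56 RPKM at Lats2, 4.03 ± 0.38 at Yap1 and 3.17 ± 0.65 at Vgll4. The EGF receptor inhibitor gene Lrig1 had 2.94 ± 0.42 RPKM, and Wwtr1, which encodes TAZ, and Tead1 were lowest with 2.37 ± 0.63 and 2.35 ± 0.51 RPKM. In this order, Erbb2 lay above Lats2 in 6 of 6 libraries by more than their SDs added together. No other pair of neighbours differed by as much as its added SDs. Among all 11251 regions Erbb3 ranked 423, Egfr 864 and Erbb2 1153, whereas Wwtr1 ranked 7651 and Tead1 7685. The median region had 3.09 RPKM, and 6 of the 9 genes were above it. The regions of Wwtr1 and Vgll4 compared here covered no annotated start of their gene, unlike those of the other genes.

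The CpG ratio did not follow the order of these levels. Over all regions the level was higher where CpG content was higher (Spearman's rho of 0.60 between mean RPKM and the ratio of observed to expected CpG, n = 11251 regions of the same 6 libraries). Among the 9 gene regions rho was -0.38, a description of 9 points only. The regions of Erbb3 and Erbb2 held few CpG for their level, with ratios of 0.360 and 0.379 against a median of 0.588 over all regions. Those of Lats2, Tead1 and Yap1 were rich in CpG, with ratios of 1.01, 0.999 and 0.915. The regions of Erbb3 and Erbb2 were also long, at 4975 and 4212 bp against a median of 1417 bp. Between length and mean RPKM rho was 0.54 over all regions and 0.43 among the 9.

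**Figure D1:**
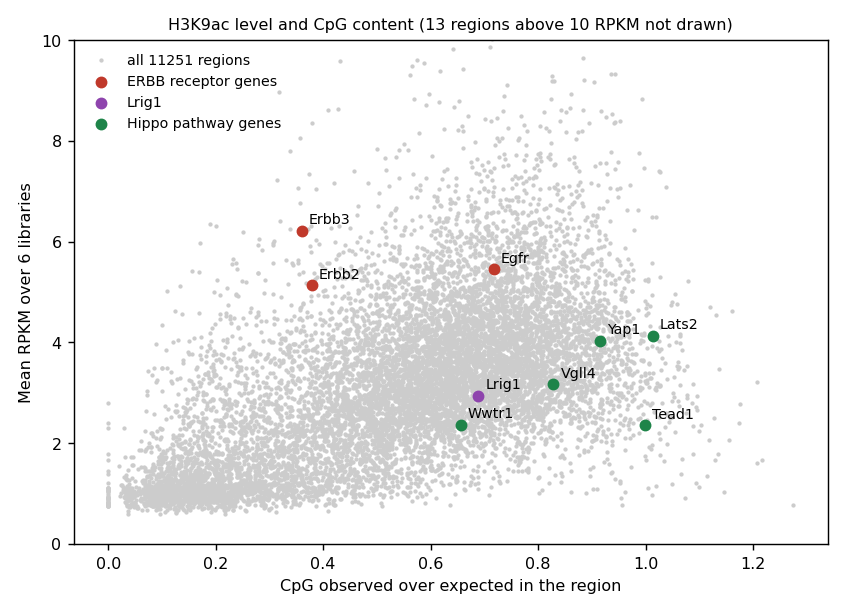
Mean RPKM over the 6 libraries (y axis, linear) against the ratio of observed to expected CpG (x axis) for all regions (grey) and for the region with the most reads of each of the 9 genes (coloured). Erbb3 and Erbb2 lie at low CpG ratios (0.360 and 0.379) and high levels, Tead1 at a high ratio (0.999) and a level of 2.35 RPKM; 13 regions above 10 RPKM are outside the drawn range.

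None of the genes passed the test for a difference between butyrate and vehicle mice. By limma on log2(RPKM + 1), 0 of the 13 regions tested had a Benjamini-Hochberg adjusted p under 0.05 (the background was 0% of 10529 regions), and their adjusted p ran from 0.64 to 0.98. An unadjusted p under 0.05 was found at 1 of 13 regions, the Egfr promoter, beside 7.27% of all regions tested (3.91% lower and 3.35% higher in butyrate). Of the 13 regions, 7 had a higher estimate with butyrate and 6 a lower one, and the median log2 fold change was 0.05, beside 0.00 over all regions tested, of which 50.0% had a higher estimate. All 9 regions with the most reads of their gene had absolute log2 fold changes under 0.25 on this scale, which understates the change of weak regions. The median half-width of the 95% interval was 0.32 over the 13 regions.

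Voom on the reads recovered from the RPKM values, which weights regions by their depth, called 0 of 14 regions (background 0.142% of 11251 regions). It gave an unadjusted p under 0.05 to 3 of the 14 (background 9.49%), at Lrig1 in 2 regions and at Vgll4 in 1. The authors' deposited table called 0 of 14 at its FDR of 0.1 (background 0.249%), with FDR values of 0.335 to 1. It gave 4 of 14 a p under 0.05 (background 9.49%), which were the 3 regions just named and Egfr. The libraries of both groups did not overlap at 2 of 14 regions, beside 14.2% of all regions. One was the Egfr promoter, the only such region among the 13 tested, where the background was 13.0%, and the other a weak intronic region of Lrig1.

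**Figure D2:**
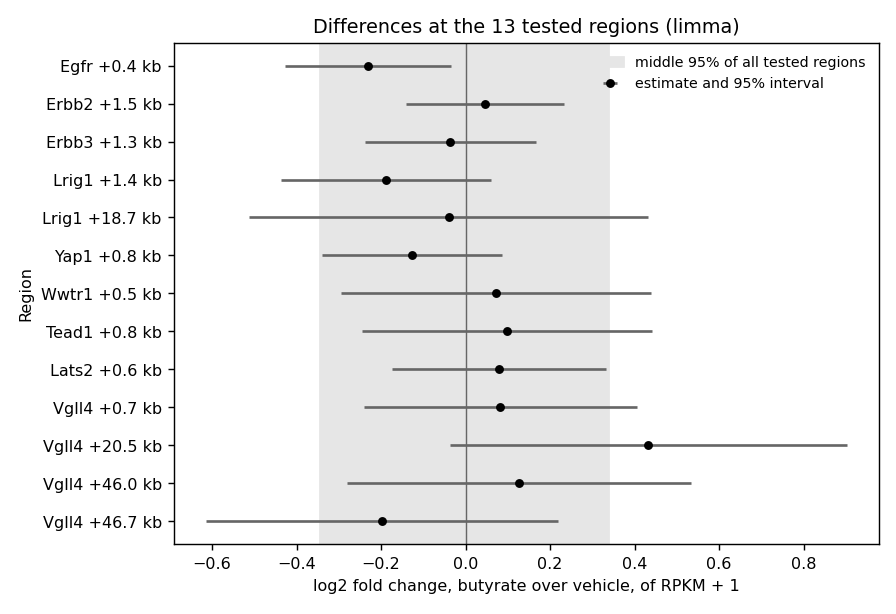
Log2 fold change of RPKM + 1, butyrate over vehicle (x axis), with its 95% interval from limma for the 13 tested regions (y axis, named by gene and distance from the TSS). The grey band holds the middle 95% of all tested regions; only the interval of Egfr (-0.43 to -0.04) leaves out 0, before any adjustment, and the widest intervals belong to the weak intronic regions of Lrig1 and Vgll4.

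The receptors come first. EGFR is the receptor tyrosine kinase for EGF, TGF-alpha, amphiregulin and related ligands. Its region (chr11:16751948-16753210, mm10, CpG island and intron 1, over 3 annotated start sites of Egfr) had 5.36, 4.29 and 5.17 RPKM in butyrate libraries S4, S5 and S6, against 6.20, 6.04 and 5.63 RPKM in vehicle libraries S1, S2 and S3. Every butyrate library lay below every vehicle library, on 97 to 150 reads in butyrate and 136 to 202 in vehicle. The group means were 4.94 ± 0.57 RPKM in butyrate and 5.96 ± 0.29 RPKM in vehicle (SD, n = 3 each), a ratio of 0.829. The log2 fold change was -0.23 ± 0.09 (SE, 95% interval -0.43 to -0.04), with an unadjusted p of 0.024 and an adjusted p of 0.64 by limma. By voom the unadjusted p was 0.062. Of all 10529 tested regions, 14.4% differed by at least as much in either direction. Among the 5531 with at least 100 mean reads the share was 4.90%, but these include regions much deeper than Egfr, which had 146.5 mean reads. Leaving out 1 library at a time gave estimates between -0.28 and -0.15, and the unadjusted p was above 0.05 by limma without S1 (0.078), without S2 (0.056) and without S5 (0.113).

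The proximal promoter of Egfr is shown because it lies within the region whose groups did not overlap. It is the 300-base RefSeq window of GRCm38.p6 around the start (chr11:16751953-16752252, plus strand, 15 CpG).
Egfr promoter: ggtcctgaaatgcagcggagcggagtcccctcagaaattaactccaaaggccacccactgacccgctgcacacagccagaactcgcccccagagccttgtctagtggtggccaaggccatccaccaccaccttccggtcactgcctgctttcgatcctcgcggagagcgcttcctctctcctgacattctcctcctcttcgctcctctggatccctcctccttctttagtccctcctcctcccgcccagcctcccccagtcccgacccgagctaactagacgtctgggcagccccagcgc
It is 62.3% G and C and has fewer CpG than the median of 23 in promoters that touch a region of the table.

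ERBB2 binds no ligand of its own and serves as the partner of the other receptors. Its region (chr11:98411844-98416056, intron 1 and start site) had 5.54, 4.92 and 5.23 RPKM in butyrate libraries, against 4.64, 5.20 and 5.27 RPKM in vehicle libraries. The groups overlapped, and the log2 fold change was 0.05 ± 0.09 (SE, 95% interval -0.14 to 0.23). With 371 to 518 reads per library this was the tightest interval of all 13 regions. ERBB3, whose own kinase is weak, binds neuregulins and signals through ERBB2 to PI3 kinase. Its region (chr10:128585856-128590831, intron 1 and start site) was the strongest of the 14 and spanned 4975 bp. It had 6.89, 5.24 and 6.27 RPKM in butyrate libraries, against 6.15, 6.75 and 5.97 RPKM in vehicle libraries. The butyrate libraries spread around the vehicle libraries on both sides, and the log2 fold change was -0.04 ± 0.09 (SE, 95% interval -0.24 to 0.17).

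**Figure D3:**
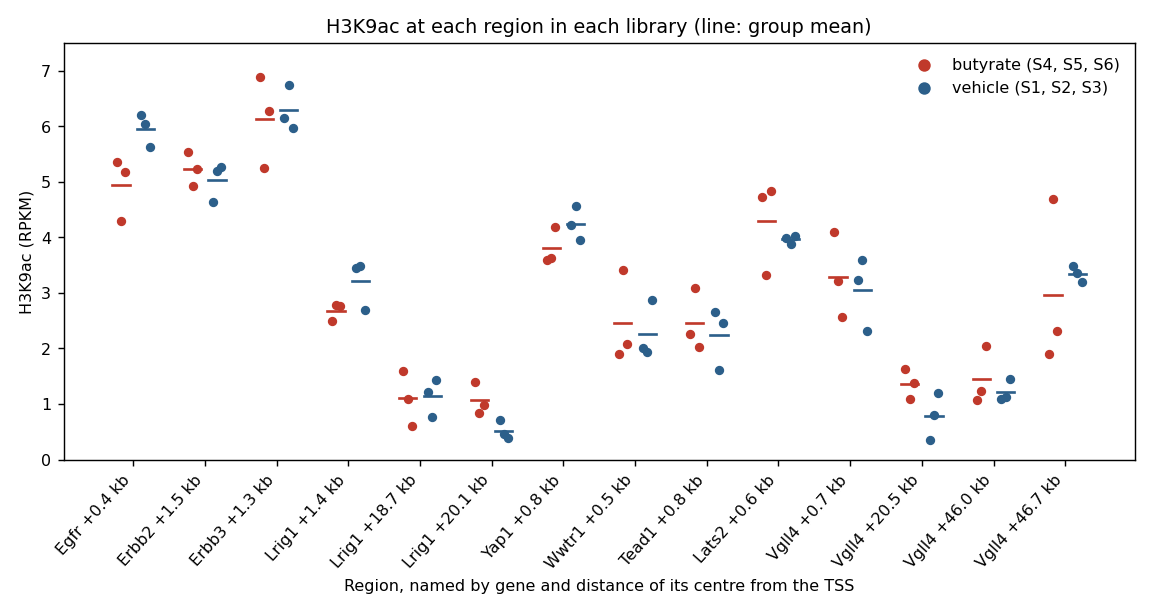
RPKM (y axis, linear) of each region in each library, with butyrate (red) left of vehicle (blue) and a line at each group mean; regions are named by gene and distance of their centre from the TSS. Egfr is the strong promoter where all butyrate libraries (4.29 to 5.36) lie below all vehicle libraries (5.63 to 6.20). At the region with the most reads of each other gene the groups overlap.

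Errfi1 and Lrig1 encode inhibitors of these receptors. ERRFI1, also known as MIG6, is induced by EGF receptor signalling and binds the kinase domain. No region carried its name. A region of 5572 bp nevertheless covered the Errfi1 start site (chr4:150851912-150857484). The table names it after 1700045H11Rik, a non-coding gene whose start lies 251 bp from the region's centre, while its annotation cell gives the promoter of an Errfi1 transcript. That region, which is not counted among the 14, had 2.79, 3.02 and 3.36 RPKM in butyrate libraries, against 3.15, 3.77 and 3.45 RPKM in vehicle libraries. The groups overlapped, with a log2 fold change of -0.14 ± 0.11 (SE) and an unadjusted p of 0.23 by limma (adjusted p 0.79).

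LRIG1 is a transmembrane protein that drives ERBB receptors to degradation and marks crypt stem cells. It had 3 regions, all in intron 1 or over the start. The promoter region (chr6:94697135-94700355, over 3 annotated start sites of Lrig1) had 2.49, 2.79 and 2.76 RPKM in butyrate libraries, against 3.45, 3.48 and 2.69 RPKM in vehicle libraries. Vehicle library S3 lay among the butyrate libraries, and S1 and S2 lay above all of them. The means were 2.68 ± 0.16 RPKM in butyrate and 3.21 ± 0.45 RPKM in vehicle (SD, n = 3 each). The log2 fold change was -0.19 ± 0.12 (SE), with an unadjusted p of 0.13 by limma and 0.037 by voom (adjusted p 0.74 and 0.48). Leaving out 1 library at a time gave limma estimates between -0.28 without S3 (unadjusted p 0.039) and -0.14 without S2 (0.31).

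Further into intron 1 lay 2 weak regions. The one at 20050 bp (chr6:94679662-94680528), annotated as an L1 LINE repeat, had 1.41, 0.838 and 0.975 RPKM in butyrate libraries, against 0.716, 0.453 and 0.391 RPKM in vehicle libraries. Every butyrate library lay above every vehicle library, but the reads behind these values were only 27, 13 and 19 in butyrate and 16, 7 and 7 in vehicle. Its mean RPKM was under 1 and it was not tested by limma. In the authors' deposited table its log2 fold change was 1.01, with a p of 0.0105 and an FDR of 0.335. Non-overlapping groups were common in such regions, at 32.1% of the 722 that had a mean RPKM under 1. The difference in log2(RPKM + 1) was 0.44 at this region, beside a median of 0.17 over those 722. The other weak region, at 18726 bp, had 1.59, 1.10 and 0.611 RPKM in butyrate libraries, against 1.22, 0.771 and 1.43 RPKM in vehicle libraries, and its groups overlapped on 7 to 18 reads.

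**Figure D4:**
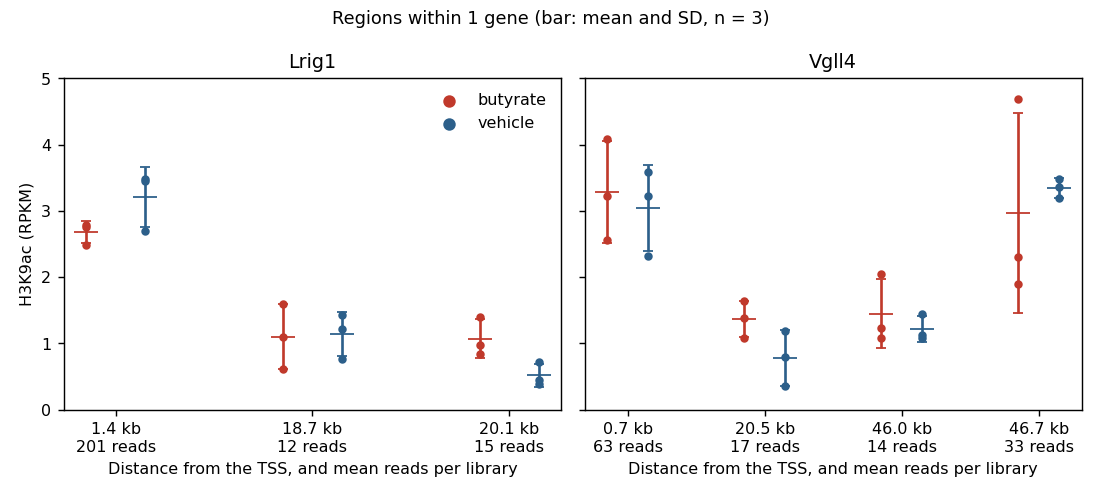
RPKM (y axis, linear) of the 3 regions of Lrig1 and the 4 regions of Vgll4, by distance from the TSS with the mean reads per library below it; points are libraries, bars the mean and SD of 3 libraries, with butyrate (red) left of vehicle (blue). Lrig1 at 20050 bp and Vgll4 at 20537 bp have higher means in butyrate, on 14.8 and 17.3 mean reads. The Vgll4 region at 683 bp is measured from another start of the gene than the other Vgll4 regions.

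YAP and TAZ, encoded by Yap1 and Wwtr1, are the paired coactivators at the end of the Hippo pathway. The Yap1 region (chr9:8002418-8005213, CpG island, intron 1 and start site) had 3.60, 3.64 and 4.20 RPKM in butyrate libraries, against 4.23, 4.57 and 3.95 RPKM in vehicle libraries. S4 and S5 lay below all vehicle libraries, and S6 lay among them. The log2 fold change was -0.13 ± 0.10 (SE, 95% interval -0.34 to 0.09) with an unadjusted p of 0.22 by limma. The region also covers the start of Gm45494, a non-coding RNA that shares the promoter in the other direction, and the reads of both starts cannot be told apart. Wwtr1 had a short region of 639 bp (chr3:57575100-57575739, CpG island in intron 1) with 1.90, 3.41 and 2.09 RPKM in butyrate libraries, against 2.00, 1.93 and 2.88 RPKM in vehicle libraries. One library of each group was high, S5 and S3, and the groups overlapped fully on 22 to 39 reads. The log2 fold change was 0.07 ± 0.17 (SE, 95% interval -0.30 to 0.44). The mean level of the Wwtr1 region was thus 2.37 RPKM, beside 4.03 RPKM at Yap1. The levels are of unlike regions, since that of Wwtr1 covers no annotated start of its gene and that of Yap1 does.

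The promoters of both coactivator genes are shown because each holds the letters GGAATG, the core of the TEAD binding motif through which YAP and TAZ act; capitals mark it. They are RefSeq windows of GRCm38.p6 on the minus strand (chr9:8004547-8004846 and chr3:57575827-57576126). The Yap1 window overlaps the Yap1 region, and the Wwtr1 window lies 88 bp beyond the Wwtr1 region.
Yap1 promoter: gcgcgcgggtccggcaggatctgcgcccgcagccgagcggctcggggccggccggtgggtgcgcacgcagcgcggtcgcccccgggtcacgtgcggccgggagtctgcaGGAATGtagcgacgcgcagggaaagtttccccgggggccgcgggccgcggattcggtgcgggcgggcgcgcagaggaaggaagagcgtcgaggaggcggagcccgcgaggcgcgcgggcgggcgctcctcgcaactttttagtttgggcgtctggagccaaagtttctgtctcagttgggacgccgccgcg
Wwtr1 promoter: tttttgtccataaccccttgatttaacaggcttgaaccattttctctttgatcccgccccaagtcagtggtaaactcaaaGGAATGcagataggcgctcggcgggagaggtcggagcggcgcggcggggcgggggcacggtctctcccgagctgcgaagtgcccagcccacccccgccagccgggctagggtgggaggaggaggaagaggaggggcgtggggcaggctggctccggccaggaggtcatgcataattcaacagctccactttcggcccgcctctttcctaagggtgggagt
The Yap1 window has 49 CpG and the Wwtr1 window 19.

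GGAATG was searched on both strands (CATTCC on the other) in the 11 windows that the RefSeq table gives for 8 of the 10 genes; it gives none for Erbb3 and Tead1. It was present in 7 windows of 6 genes, Wwtr1 having 2 windows that share 1 match. It was held by 14.7% of all 32851 windows of this length, and by 11.3% of the 9290 that touch an H3K9ac region. The matches, each with 10 bases on either side, on the strand that reads GGAATG and with the motif in capitals, are set out to compare their flanks.
Yap1: ggagtctgcaGGAATGtagcgacgcg
Wwtr1: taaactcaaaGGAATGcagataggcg
Lats2: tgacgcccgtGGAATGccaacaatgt
Vgll4: agtggggtggGGAATGctgagaaatg
Erbb2: cagtcttgctGGAATGcagttggagg
Errfi1: tttaacatatGGAATGaggtgctggc
The matches lay 141 bases before the start in Yap1, 82 before it in Vgll4, 88 before it in Erbb2 and 65 before it in Errfi1. In the Wwtr1 window shown it lay 170 bases before the start. In Lats2 the match lay 4 bases after the start. The Egfr and Lrig1 windows held none, nor did the second window of Errfi1 and that of Lats2. The AP-1 letters TGANTCA were in none of the 11 windows (7.8% of all windows, 4.7% of those that touch a region). The HNF4A-type letters CAAAG, or CTTTG on the other strand, were in windows of 6 of the 8 genes (53.9% of all windows, 43.6% of those that touch a region), and in Wwtr1 they overlap the TEAD match by 1 base. A match describes these letters only and is not evidence of binding.

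Of the receptor promoters in the table, Egfr and Erbb2, that of Erbb2 holds a TEAD match (chr11:98412234-98412533, plus strand, GRCm38.p6, 21 CpG), and it is shown to compare with that of Egfr above, which has none.
Erbb2 promoter: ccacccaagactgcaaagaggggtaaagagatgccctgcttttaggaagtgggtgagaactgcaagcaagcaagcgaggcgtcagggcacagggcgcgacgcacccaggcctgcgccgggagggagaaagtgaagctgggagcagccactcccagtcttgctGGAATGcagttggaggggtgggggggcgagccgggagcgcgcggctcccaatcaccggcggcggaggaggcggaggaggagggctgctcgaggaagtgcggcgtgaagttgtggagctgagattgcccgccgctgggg

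TEAD1 is the DNA-binding partner of YAP and TAZ. Its region (chr7:112679179-112681127, intron 1 and start site) had 2.27, 3.10 and 2.03 RPKM in butyrate libraries, against 2.67, 1.61 and 2.46 RPKM in vehicle libraries. S5 was highest and S2 lowest, so that the groups overlapped, and the log2 fold change was 0.10 ± 0.16 (SE, 95% interval -0.25 to 0.44). The region also holds the start of 2310014F06Rik, a non-coding RNA on the other side of the same promoter. Of the other TEAD genes, Tead3 had 4.46 ± 0.23 RPKM in butyrate and 4.28 ± 0.30 RPKM in vehicle (SD, n = 3 each). Tead4 had 2.15 RPKM in butyrate and 2.35 RPKM in vehicle, and Tead2 2.01 RPKM in butyrate and 2.21 RPKM in vehicle.

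LATS2 is the kinase that phosphorylates YAP and TAZ and keeps them in the cytoplasm. Its region (chr14:57744581-57746514, CpG island, intron 1 and start site) had 4.73, 3.32 and 4.83 RPKM in butyrate libraries, against 3.99, 3.88 and 4.03 RPKM in vehicle libraries. S4 and S6 lay above and S5 below all vehicle libraries, and the SD was 0.84 RPKM in butyrate and 0.075 RPKM in vehicle (n = 3 each). The log2 fold change was 0.08 ± 0.12 (SE, 95% interval -0.18 to 0.33). It was 0.22 without S5 (unadjusted p 0.049 by limma), 0.015 without S4 (0.91) and 0.003 without S6 (0.98). The start of Gm49361, a protein-coding model over the same start, lies in the region too.

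VGLL4 binds TEAD proteins in place of YAP and so represses their targets. It had 4 regions along the gene, more than any of the other genes. The region nearest its start (chr6:114968051-114968988, intron 1) had 4.09, 3.22 and 2.56 RPKM in butyrate libraries, against 3.23, 3.59 and 2.32 RPKM in vehicle libraries, and the groups overlapped. Its log2 fold change was 0.08 ± 0.15 (SE, 95% interval -0.24 to 0.41). The distances of the other Vgll4 regions were measured from a different start, farther inside the gene. Those regions therefore lie farther from the first start than their distances say. A weak region at 20537 bp (chr6:114900898-114901669, intron 2) had 1.64, 1.09 and 1.38 RPKM in butyrate libraries, against 0.352, 0.799 and 1.19 RPKM in vehicle libraries. S5 lay below vehicle library S3, and the other values were separate, on 15 to 28 reads in butyrate and 7 to 19 in vehicle. The log2 fold change was 0.43 ± 0.22 (SE, 95% interval -0.04 to 0.90), with an unadjusted p of 0.068 by limma and 0.010 by voom (adjusted p 0.70 and 0.35). The region's mean of 1.07 RPKM passed the filter of 1 only through the butyrate libraries, with group means of 1.37 in butyrate and 0.781 in vehicle. Its limma values therefore cannot be read as support for a difference. Leaving out 1 library at a time gave limma estimates between 0.25 without S1 (unadjusted p 0.26) and 0.60 without S3 (0.023). Absolute log2 fold changes over 0.4 were found at 10.3% of the 1488 tested regions with under 25 mean reads.

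The other Vgll4 regions lie side by side at 45996 and 46684 bp, in intron 2 (chr6:114875575-114876075 and chr6:114874887-114875387). The second of them covers 2 further annotated starts of Vgll4, and its mean level of 3.16 RPKM was close to the 3.17 RPKM of the region nearest the first start. It had 1.89, 4.69 and 2.31 RPKM in butyrate libraries, against 3.49, 3.36 and 3.19 RPKM in vehicle libraries. S5 was far above and S4 and S6 below all vehicle libraries, and the log2 fold change was -0.20 ± 0.19 (SE). It rested on single butyrate libraries, at -0.49 without S5 (unadjusted p 0.0020 by limma), -0.10 without S6 (0.66) and -0.002 without S4 (0.99). Its neighbour had 1.08, 1.23 and 2.04 RPKM in butyrate libraries, against 1.09, 1.12 and 1.45 RPKM in vehicle libraries, and the groups overlapped. Summed over its 4 regions, Vgll4 had 6.34 ± 0.62 CPM in butyrate and 5.74 ± 0.42 CPM in vehicle (SD, n = 3 each). Lrig1 over its 3 regions had 10.1 ± 0.13 CPM in butyrate and 11.4 ± 1.4 CPM in vehicle (SD, n = 3 each). CPM are the reads recovered from the RPKM values, scaled to the effective library size.

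Library S5 was the lowest butyrate library at 6 of the 14 regions and the highest at 4. It had the fewest reads in regions of the butyrate libraries, 1255251. Without S5 the estimate changed sign at Erbb3 (0.06), Tead1 (-0.03) and Wwtr1 (-0.12), none of them called in any fit. S5 was not alone in this. Leaving out vehicle library S2, which had 1261630 reads in regions, changed the sign at the same genes (0.008, -0.052 and -0.002). Other regions changed sign without S1, S3, S4 or S6.

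The other genes of both pathways were taken from lists by role, 1 region per gene near the TSS. Of the 49 EGF receptor genes 39 were measured, 19 with a higher and 20 with a lower estimate in butyrate, and the median log2 fold change was -0.01. None passed limma's adjusted p of 0.05 (background 0%) or that of voom, and 2 had an unadjusted p under 0.05, both lower (background 3.91% lower, 7.27% in either direction). They were Btc, the EGF-type ligand betacellulin, and Cbl, the ubiquitin ligase that sends activated EGFR to degradation. Btc had 3.72 ± 0.35 RPKM in butyrate and 4.84 ± 0.69 RPKM in vehicle (SD, n = 3 each), with every butyrate library below every vehicle library (log2 fold change -0.30 ± 0.11, SE; adjusted p 0.60 by limma). Cbl had 3.63, 3.45 and 3.15 RPKM in butyrate libraries, against 4.03, 4.59 and 4.13 RPKM in vehicle libraries, again without overlap (-0.25 ± 0.10, SE; adjusted p 0.64 by limma). The next smallest p belonged to Akt1, a kinase downstream of PI3 kinase, with 3.84 ± 0.027 RPKM in butyrate and 4.53 ± 0.19 in vehicle (SD, n = 3 each; adjusted p 0.69 by limma). The groups did not overlap at 7 of the 39 genes, 6 of them lower, where the background was 13.0% in either direction.

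Among the ligands, regions were found for Egf, Tgfa, Hbegf, Areg and Btc, and no region was named for Ereg, Epgn, Nrg1, Nrg2 or Nrg4. Of these 5 measured ligands 4 had a lower estimate, with a median of -0.10, where 50.0% of all regions tested had a higher estimate. Areg, for amphiregulin, a ligand that YAP induces, had 3.24 RPKM in butyrate and 3.39 RPKM in vehicle. Egf had 2.42 RPKM in butyrate and 2.05 RPKM in vehicle. No region was named for Erbb4, the remaining receptor of the family. Adaptors and effectors were measured at 20 of 22 genes, 11 higher and 9 lower, and the inhibitors at 14 of 16, 7 higher and 7 lower. Lrig2 and Lrig3, the relatives of Lrig1, had log2 fold changes of 0.01 and -0.02.

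Of the 44 Hippo genes 24 were measured, 16 with a higher and 8 with a lower estimate, and the median log2 fold change was 0.01. None passed limma's adjusted p of 0.05 and none had an unadjusted p under 0.05 (background 7.27%), and voom called none of them. The groups did not overlap at 1 of the 24 genes, lower in butyrate, where the background was 13.0% in either direction. All estimates lay between -0.11 and 0.14. In the kinase core 10 of the 11 measured genes had a higher estimate (background 50.0%), with a median of only 0.01. The 3 smallest p of the list belonged to Lats1, the relative of Lats2, Nf2, which encodes the upstream activator merlin, and Mob1a, a cofactor of the LATS kinases. Lats1 had 6.29, 6.03 and 6.91 RPKM in butyrate libraries, against 5.64, 5.53 and 6.14 RPKM in vehicle libraries, and the groups overlapped (0.13 ± 0.08, SE; adjusted p 0.74 by limma). Nf2 had 0.12 ± 0.10 and Mob1a 0.14 ± 0.12 on the log2 scale (SE). Targets of YAP and TAZ were measured at 4 of 10 genes. Ccn1, the matricellular protein CYR61, had 2.60 RPKM in butyrate and 2.85 RPKM in vehicle, and no region was named for Ccn2, Ankrd1, Axl, Clu, F3 or Tgfb2.

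**Figure D5:**
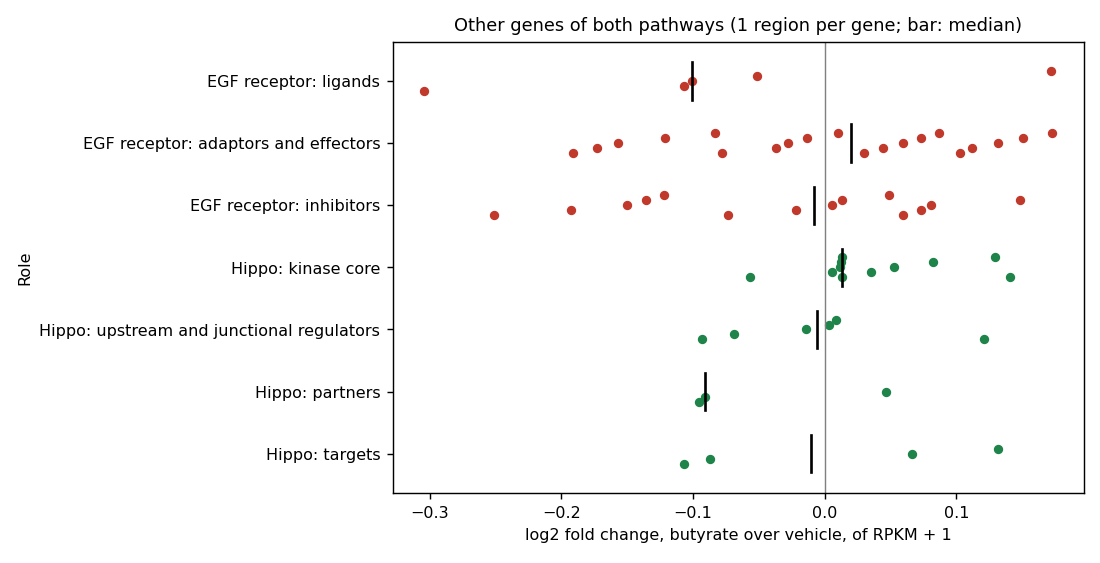
Log2 fold change of RPKM + 1, butyrate over vehicle (x axis), for the other genes of the EGF receptor (red) and Hippo (green) pathways by role (y axis), 1 region per gene, with the median of each role as a bar. Btc (-0.30) and Cbl (-0.25) are the lowest points, and all Hippo genes lie between -0.11 and 0.14.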

How the data were processed

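H3K9ac was measured in 6 libraries, 3 per group. The submitters' processing notes name mm10 as the build and list edgeR, HOMER, Picard and STAR among the authors' tools. The sources used here give no versions and do not say how regions were called. The deposited table gives 11251 regions with RPKM per library and, as the authors' values, mean RPKM and mean CPM per group (not used for tests), log2 fold change (butyrate over vehicle), p-value and FDR. Coordinates are as deposited. Distances are from a region's centre to the TSS that the authors' annotation assigned to it, which can differ between regions of a gene. Reads per region were recovered from RPKM and length, and 100% came out whole within 0.01 reads.

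Column names gave the group of a library (S1 to S3, S4 to S6) and not its sample. The main test was limma 3.58.1 (R 4.3.3) on log2(RPKM + 1), with intensity trend and robust empirical Bayes, without covariates, on the 10529 regions with a mean RPKM of at least 1, with Benjamini-Hochberg adjustment at 0.05. Voom used the recovered reads and effective library sizes of 17846924 to 25805595. The fits were tested on simulated data. Starts come from GENCODE M21 and promoters from RefSeq, both GRCm38, the assembly of mm10. For pathway lists, each gene's best-covered region no farther than 5 kb from its TSS was used. Named were each member's region with the most reads, further regions with an unadjusted p under 0.05 or groups without overlap, and the 3 smallest p of each list; the other regions and genes were named after their values were seen. The members and lists were chosen with earlier results of these data known. Alternatives covered the pseudocount, filter, scaling, test, threshold, region per gene and each library left out. Since the table holds RPKM and not counts, limma was used in place of the count test planned for whole counts. Inputs were not used.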

Additional observations from a re-analysis of the deposited data

How the results depend on the processing

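No paired analysis was possible because the columns carry the numbers S1 to S6 and not the replicate numbers of the labels. Limma on log2(RPKM + 1) called 0 of all regions, 0 of the 13 tested regions of the 9 genes and 0 of the other pathway genes, and these counts stayed 0 with pseudocounts of 0.5 and 0.1, without the filter, with at least 25 mean reads, with 3 other scalings, at a threshold of 0.1 and with each library left out; the region closest to the TSS also gave 0 for the pathway genes. Over all regions voom called 16, and voom on at least 25 mean reads, an alternative chosen after seeing the data, called 9; neither called a region of the 9 genes or of the other pathway genes, and the cause was not tested. Of 197 alternative values for the 14 regions 185 kept their direction, and the 12 that reversed all came from leaving out 1 library. Leaving out each library gave log2 fold changes of -0.003 to 0.083 for Erbb2, -0.113 to 0.057 for Erbb3, -0.052 to 0.193 for Tead1, -0.115 to 0.2 for Wwtr1, -0.206 to 0.138 for Lrig1 at 18726 bp, -0.053 to 0.209 for Vgll4 at 683 bp and -0.039 to 0.235 for Vgll4 at 45996 bp. The intronic regions of Lrig1 at 20050 bp and of Vgll4 at 20537 bp had 14.8 and 17.3 mean reads, where counting error is large. Their log2 fold changes by voom, which adds less to low values, were 1.00 and 1.02.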

Other observations

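Errfi1 was not alone in having its start under a region that carries another name. Of 21875 protein-coding genes in the basic GENCODE set, 8128 had a start within a region of the table, and 949 of these (11.7%) had no region of their own name. In the pathway lists these were Pik3ca, the catalytic subunit of PI3 kinase, under a region named for Zmat3, and Pik3r2, a regulatory subunit, under one named for 2010320M18Rik. A search of the table by gene name therefore misses promoters that the regions cover.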
